A study of Sus scrofa domesticus and Sus scrofa with 18 samples.

Results

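The protein-coding genes described here had lower levels in the spleen of the pig fetus than at birth. From birth on they had nearly the same mean level in every stage of the domestic pig. They were chosen from the measured levels by a rule on group means of log2(FPKM+1), where FPKM is fragments scaled to transcript length and library size. The mean had to be at least 1 higher at B0d than at E55d, the means of B0d, W30d, A180d and A2Y had to lie within less than 0.75 of each other, and the mean over all libraries had to be below 10. The rule gave 359 of the 12913 protein-coding genes in the table. The spleens came from female Rongchang pigs, a Chinese domestic breed, taken at E55d (fetuses, 55 days before birth), B0d (newborn piglets), W30d (30 days after weaning), A180d (at an age of 180 days) and A2Y (at 2 years), and from female Wild Boars of 2 years (WB). Each of the 6 groups had 3 animals with 1 strand-specific library each, so there were 18 libraries of whole spleen. The stages compare different animals, and no fetus between E55d and birth was sampled. The WB and A2Y animals differed in population and place of origin, and their libraries in sequencing depth, which cannot be told apart.

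The spleen is a blood filter and a lymphoid organ, and in the fetus it also takes part in blood cell formation. Its red pulp holds macrophages that take up old red cells and microbes, break them down in lysosomes with acid hydrolases, and sense microbial products through Toll-like receptors. Myeloid cells pass many surface signals through small adaptors with activation motifs, such as the one encoded by TYROBP, to Src-family and Syk kinases.

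The deposited values are log2(FPKM+1) and hold no read numbers, so the depth behind a single value is unknown, and no counting interval is given. The paper lists more high quality sequence for every A2Y library than for any WB library. On this scale the difference of a gene with low FPKM is understated. In whole tissue, fewer cells of a type and less RNA per cell cannot be told apart. Some libraries stood apart from their group. Of a list of 16 pancreas, liver and fat genes only ALB and APOA1, which encode plasma proteins made by the liver, were measured. Their summed FPKM was 684.4 in B0d library 3, against 49.5 and 49.9 in the other B0d libraries. Of the 359 genes, 79.9% were above the WB mean in WB library 3 and 75.5% above the W30d mean in W30d library 2, where the range over the other libraries was 27.9% to 68.8%. One gene took 36.9% to 53.6% of the summed FPKM in 16 libraries and was listed at 0 in A180d libraries 1 and 2. Median-ratio scaling of the libraries moved the median B0d minus E55d difference of all genes from 0.13 to 0.01, and that of the 359 genes from 1.27 to 1.16.

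Between E55d and B0d the mean of 1120 genes went up by at least 1, and 32.1% of these genes were then level, which made the set of 359. Of the others, 405 had their lowest postnatal mean at B0d and went on to higher means, 186 had their highest at B0d, and 170 had neither. No gene was left out only because of its mean over the libraries. The B0d minus E55d difference lay between 1 and 1.5 for 227 members, from 1.5 to 2 for 71, from 2 to 3 for 45 and at 3 or more for 16. Just inside this limit were ENSSSCG00000010707 and ABCA8, a lipid transporter, with differences that both round to 1.00, and just outside it was SMAP2 with 0.998. Just inside the limit on the postnatal range was HCLS1 with 0.748, and just outside it was ARPC5, an actin-nucleating subunit, with 0.752. Since these values chose the genes, they describe the set and were not tested. In the limma model over all genes, 355 members passed for the rise at an adjusted p of at most 0.05, where 22.3% of all genes passed in this direction. Nothing is read from that count, because the rule used the same contrast.

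**Figure D1:**
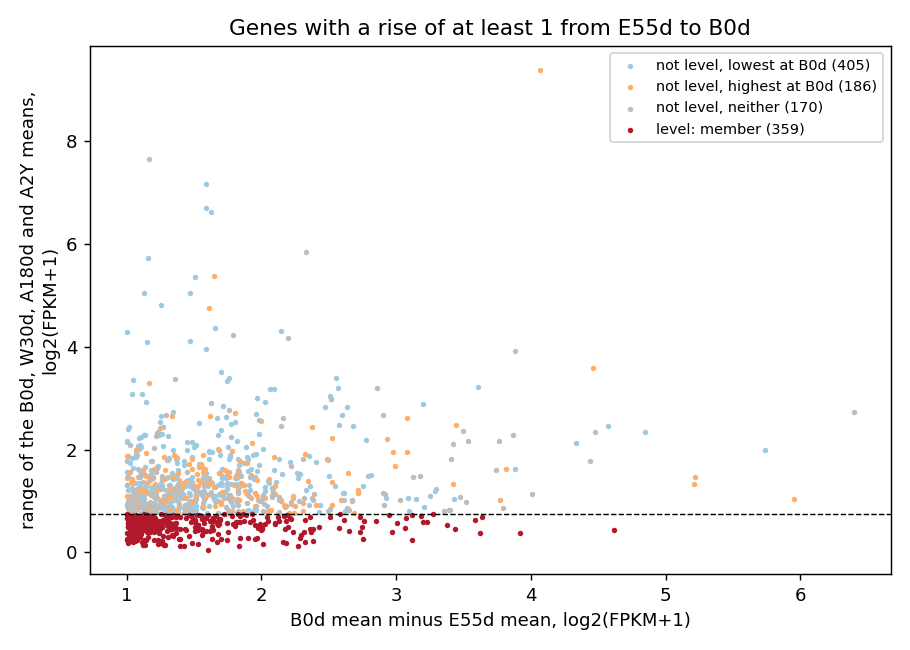
Each point is 1 of the 1120 genes whose mean was at least 1 higher at B0d than at E55d, with that difference on the x axis and the range of the 4 postnatal domestic means on the y axis, both in log2(FPKM+1). The 359 members (dark red) lie below the dashed line at 0.75, and many of them have differences close to 1.

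On the log2(FPKM+1) scale, the median level of the members was 2.05 in the fetus (E55d) and 3.60 in the newborn (B0d). It was then 3.58 for W30d, 3.62 for A180d, 3.78 for A2Y and 3.98 for WB. Over all genes the same medians were 2.26, 2.41, 2.42, 2.37, 2.48 and 2.48. The median member was below the median gene in the fetus and above it in every later group. They were not all silent in the fetus, as 72 of the 359 had FPKM below 1 in all 3 E55d libraries and the others were measured above that in at least 1. Levels in the separate libraries overlapped little with E55d: in 344 members every one of the 12 postnatal domestic libraries was above all 3 E55d libraries, where 22.3% of all genes had this pattern. That count also follows from the rule. Within the level phase 133 members had their highest mean at A2Y, 80 at B0d, 80 at A180d and 66 at W30d. For the lowest mean these numbers were 36, 120, 92 and 111.

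**Figure D2:**
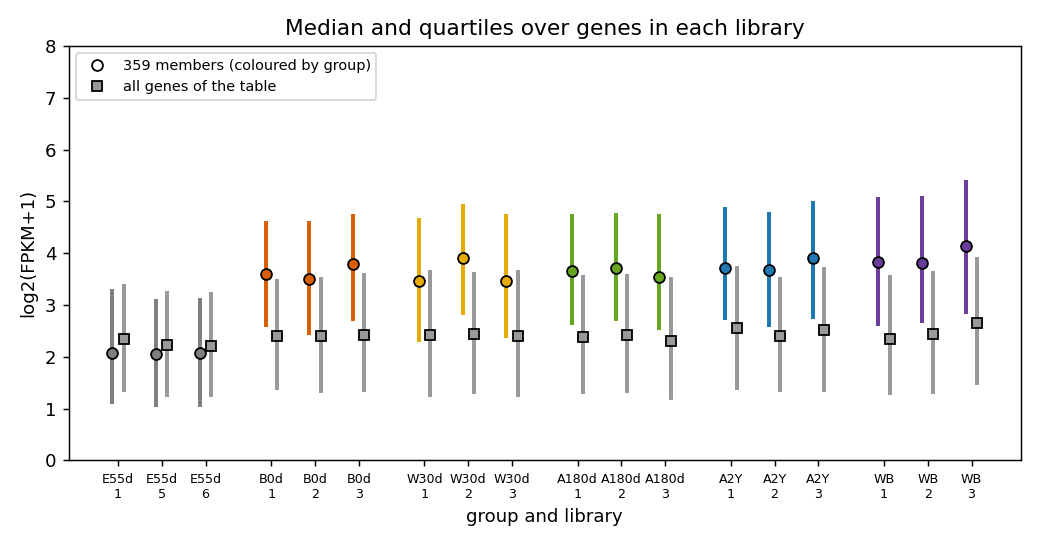
Median (symbol) and quartiles (bar) of log2(FPKM+1) over the 359 members (circles, coloured by group) and over all 12913 genes (grey squares) in each of the 18 libraries, where the numbers under the axis are those of the deposited columns. The member medians lie near 2 in the 3 E55d libraries and between 3.47 and 4.15 in all later libraries, with WB library 3 highest.

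The level phase was a property of means, with a clear spread behind it. The median SD of the members over the 3 libraries of a group was 0.359 for B0d, 0.296 for W30d, 0.170 for A180d and 0.248 for A2Y, against 0.229, 0.202, 0.145 and 0.191 over all genes. When each library was left out in turn the number of genes that met the rule ran from 305 to 396, but only 123 of the 359 (34.3%) met it under every omission. When B0d library 3 was left out, 314 genes met the rule, and 240 of them were among the 359. Of the 119 members lost in this way, 76 no longer had a rise of 1 and 61 exceeded the postnatal range. When W30d library 2 was left out, 305 genes met the rule, of which 296 were members. A pseudocount of 0.1 gave 477 genes with 281 of the members, and median-ratio scaling gave 281 genes with 254 of the members.

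The largest difference belonged to ENSSSCG00000030882, for which no symbol was found. Its level was 3.52, 3.68 and 3.72 at E55d and 8.04, 8.44 and 8.29 at B0d. At A2Y it was 8.58, 8.37 and 9.11, and no postnatal library came near the E55d values. Among genes with a symbol, COCH, which encodes the extracellular matrix protein cochlin, led with a difference of 3.64. Its level was 0.31, 0.39 and 0.42 at E55d and 4.55, 3.79 and 3.70 at B0d. It then stood at 3.65, 3.16 and 3.91 at A2Y, and the mean FPKM went from 0.30 ± 0.05 (SD, n = 3) at E55d to 15.7 ± 5.76 at B0d. The postnatal range of COCH, 0.70, was close to the limit, and it did not meet the rule under every omission of a library.

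SRGN, the core protein of the proteoglycan in secretory granules of blood cells, had the highest mean over the 18 libraries (8.64). It was at 5.66, 5.67 and 5.31 at E55d, 8.95, 9.19 and 9.38 at B0d, and 9.03, 8.80 and 9.31 at W30d. The later values were 8.43, 9.02 and 8.94 at A180d and 9.33, 8.52 and 9.39 at A2Y. The B0d, W30d, A180d and A2Y libraries overlapped with each other, and none overlapped with E55d. In FPKM this was a step from 46.1 ± 6.44 to 580.3 ± 85.3 (SD, n = 3).

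Several genes with large differences encode receptors and signalling proteins of myeloid cells. TYROBP, the adaptor of several activating receptors, was at 4.09, 4.39 and 4.76 at E55d, 7.86, 8.05 and 8.08 at B0d, and 8.63, 8.54 and 8.73 at A2Y. All its A2Y libraries were above all its B0d libraries, so that its mean was higher at A2Y within the limit of the rule. HCLS1, an actin-binding signalling protein of blood cells, was at 2.63, 2.77 and 2.74 at E55d, 5.85, 6.55 and 6.29 at W30d, and 6.75, 6.30 and 6.67 at A2Y, with a B0d minus E55d difference of 3.28. CD300C, an immunoglobulin-like receptor of leukocytes, had one of 3.23, and its B0d libraries were spread over 4.35, 5.14 and 6.19. CD300C belongs to a family of similar genes, between which reads may be divided uncertainly. TYROBP, HCLS1 and CD300C did not meet the rule under every omission of a library.

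Of the 17 measured genes of pattern recognition, 3 were members, 5 others were higher by at least 1 without being level, and 9 changed by less than 1. For this list and those below, 359 of all 12913 genes were members and 1120 were higher by at least 1 at B0d. TLR4, the receptor for bacterial lipopolysaccharide, was at 2.39, 2.31 and 2.40 at E55d, 5.38, 5.03 and 5.24 at B0d, and 5.69, 5.32 and 5.85 at A2Y. TLR2, the receptor for bacterial lipoproteins, was at 1.62 in each of the 3 E55d libraries and at 3.52, 3.54 and 4.36 at B0d. Neither receptor's postnatal libraries reached down to its E55d level. TLR2 had a postnatal range of only 0.19, against 0.61 for TLR4. The last of these members, IRAK4, a kinase downstream of these receptors, had a difference of 1.03, close to the limit of the rule. TLR2 met the rule under every omission of a library, and TLR4 and IRAK4 did not.

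Among 20 chemokines, cytokines and their receptors, 4 were members and 9 others had a difference of at least 1 without being level. CCR1, a receptor for inflammatory chemokines, was at 1.36, 1.61 and 1.47 at E55d and 4.40, 4.10 and 5.17 at B0d. IL10, a cytokine that restrains inflammation, was at 0.84, 0.70 and 0.89 at E55d, 2.32, 2.58 and 3.44 at B0d, and 3.25, 2.71 and 3.09 at A2Y. The stage means of IL10 after birth lay within 0.28, although single libraries of W30d were as far apart as 2.16 and 3.45. IL15, a growth factor of NK and memory T cells, was at 0.34, 0.24 and 0.50 at E55d and 2.01, 1.95 and 1.70 at B0d. CX3CR1, the fractalkine receptor, had a difference of 1.27, and its B0d libraries were at 2.89, 1.67 and 1.03. It was 1 of 4 members that did not pass the limma test of the rise (adjusted p = 0.0609), together with IL1A, CYB561A3 and ENSSSCG00000025467. IL10 and IL15 met the rule under every omission of a library, and CCR1 and CX3CR1 did not.

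The lysosome list was the one with most members, 6 of 17 measured genes, while 4 others had a difference of at least 1 and were not level. CTSB, a cysteine protease of the lysosome, was at 6.43, 6.18 and 6.19 at E55d, 8.11, 8.57 and 7.99 at B0d, and 8.04, 8.26 and 8.05 at A2Y. CTSH, another cysteine protease, was at 4.66, 4.61 and 4.53 at E55d and 7.29, 7.45 and 7.02 at B0d. Both were level from birth, with postnatal ranges of 0.25 and 0.42. LIPA, the lysosomal acid lipase, had a difference of 1.69, and CTSA, a carboxypeptidase that protects other hydrolases, one of 1.19. GRN, the precursor of granulins, was the most even of them, with postnatal means within 0.04 of each other. The GRN libraries themselves ran from 5.72 to 6.64 after birth and from 4.52 to 4.54 at E55d. All 6 lysosomal members met the rule under every omission of a library.

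The remaining members on cell type lists were few. CSF1R, the receptor for the macrophage growth factor, was at 2.16, 1.64 and 2.06 at E55d and 3.96, 3.55 and 3.45 at B0d. MERTK, a receptor for the uptake of dying cells, had a difference of 1.01, and these were the 2 members among 15 measured genes of red pulp macrophages and iron recycling. CSF3R, the receptor for the granulocyte growth factor, was the only member among 11 genes of neutrophils and monocytes, and its B0d libraries were at 1.02, 1.81 and 1.73 against 0.32, 0.24 and 0.35 at E55d. CD86, a costimulatory molecule of antigen-presenting cells, was the only member among 7 genes of dendritic cells, with 2.52, 2.38 and 2.29 at E55d and 4.64, 4.38 and 3.80 at B0d. CSF1R and CSF3R met the rule under every omission of a library, and MERTK and CD86 did not. Of the red pulp list, 8 others were also higher by at least 1 at B0d but were not level. The iron storage gene FTL, which differed by 0.23 at B0d, took 78.4% to 79.6% of the summed FPKM of this list at E55d. Without FTL the sum was 264.8 to 274.8 at E55d, 1480.5 to 1775.7 at B0d and 2196.2 to 2535.0 at A2Y.

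Members were 2.78% of all genes, and nothing is read from a short list without a member. The lists of lymphoid cells were such lists. Over all 12913 genes, 1120 had a B0d minus E55d difference of at least 1. Of 18 measured genes of T and NK cells, 11 had one, and 9 of these had their lowest postnatal mean at B0d. In summed FPKM this list ran from 9.36 to 10.9 at E55d, from 63.7 to 97.4 at B0d and from 477.4 to 558.6 at A180d. A difference of at least 1 was found for 5 of 8 genes of class II antigen presentation and 4 of 10 of B cells and plasma cells, again without a member. Likewise 7 of 17 interferon response genes had a difference of at least 1 and each had its lowest postnatal mean at B0d. In the opposite direction, 7 of 12 proliferation genes and 8 of 14 fibroblast and matrix genes were lower by at least 1 at B0d. The lower quartile of this difference over all genes was -0.21, and the share of all genes lower by at least 1 was not computed. Erythroid genes summed to FPKM from 1571.5 to 13108.1 among the E55d libraries, and this spread was not tested against any level given here.

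**Figure D3:**
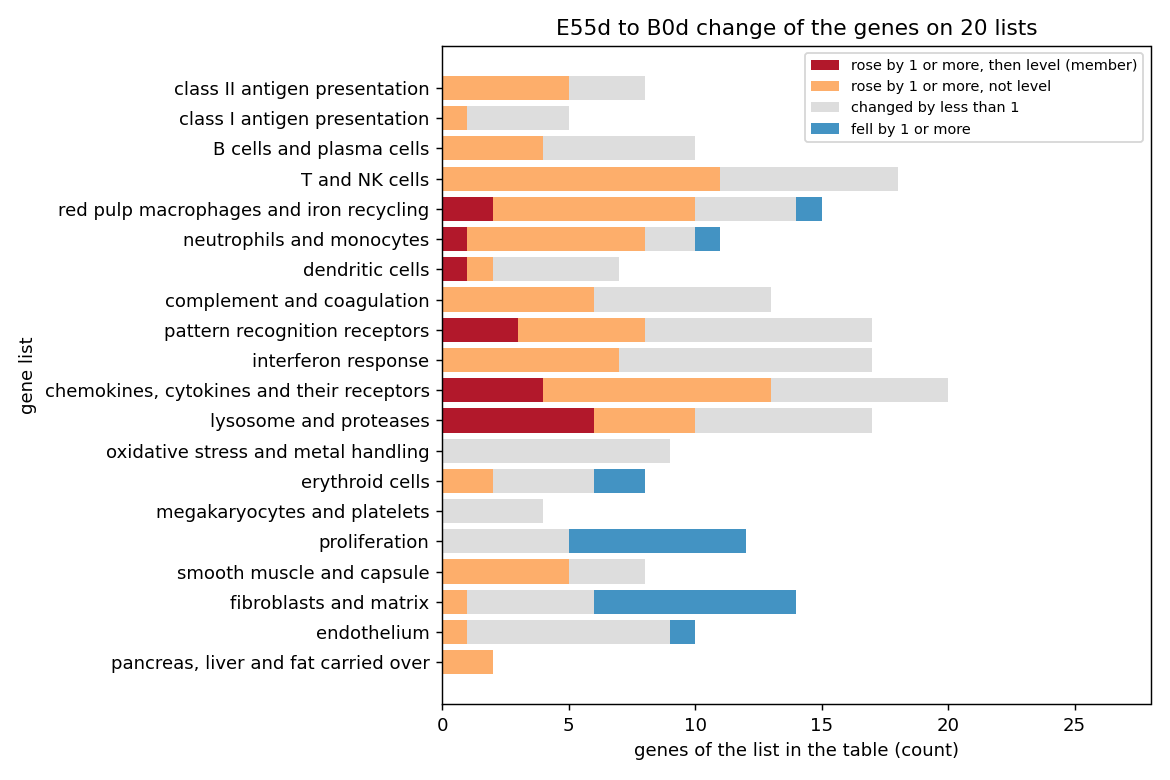
Number of measured genes on each of 20 lists by their E55d to B0d difference in mean log2(FPKM+1), where the bar colours separate members, other genes higher by at least 1, genes within 1 and genes lower by at least 1. Members (dark red) occur on 6 lists, with 6 of 17 genes for lysosome and proteases, where 2.78% of all genes were members.

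Some of the most abundant members are used by nearly all cells. RPL27, a protein of the large ribosomal subunit, was at 7.46, 7.19 and 7.38 at E55d and 8.22, 8.58 and 8.63 at B0d, and pseudogenes of ribosomal proteins make its level uncertain. ITM2B, a membrane protein processed to small peptides, had a difference of 1.58. HSPA5, the main chaperone of the endoplasmic reticulum, was at 6.20, 5.97 and 6.01 at E55d and 6.34, 7.02 and 8.67 at B0d. Its B0d library 3 was far above the other B0d libraries, and without it the difference was 0.62, so that HSPA5 no longer met the rule.

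Other members were also highest in this library, the one with high ALB and APOA1 (9.05 and 7.28, against 0.13 to 0.45 and 5.65 to 5.67 in the other B0d libraries), and the part of that in the members was not tested. The following were picked after their values were seen. HYOU1 and DNAJB11, which are chaperones of the same compartment, had differences of 1.18 and 1.08 with all libraries and of 0.45 and 0.53 without it. MT1X, a metallothionein with close paralogs, was at 3.99, 3.50 and 7.59 at B0d, and its difference of 2.02 became 0.74. IL1A, an alarm cytokine, was at 0.84, 0.96 and 2.82. Without library 3 these 4 genes did not meet the rule. STAT3, a transcription factor of cytokine signalling, was at 4.73, 4.47 and 6.18 but still met the rule without it. In all, B0d library 3 was the highest of the 3 for 168 members (46.8%), and for 41.9% of all genes.

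Other genes with large differences have varied or less known roles. RASGEF1B, an exchange factor for Ras-like proteins, was at 0.99, 1.08 and 1.04 at E55d and 4.46, 4.26 and 4.52 at B0d, and it met the rule under every omission. FGL2, a fibrinogen-like protein of leukocytes, was at 2.43, 2.00 and 2.48 at E55d, 5.47, 5.75 and 5.24 at B0d, and 5.98, 6.29 and 6.33 at A2Y. Its A2Y libraries were all above its B0d libraries, with a postnatal range of 0.71, and FGL2 did not meet the rule under every omission. ANKRD22 was at 0.41, 0.34 and 0.21 at E55d and 3.42, 3.40 and 3.16 at B0d, and its difference was 4.73 with a pseudocount of 0.1 in place of 1. DENND11, with 0.95, 0.67 and 0.54 at E55d and 3.62, 3.64 and 3.10 at B0d, had a postnatal range of 0.40. In both genes the fetal libraries were far below the newborn ones.

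**Figure D4:**
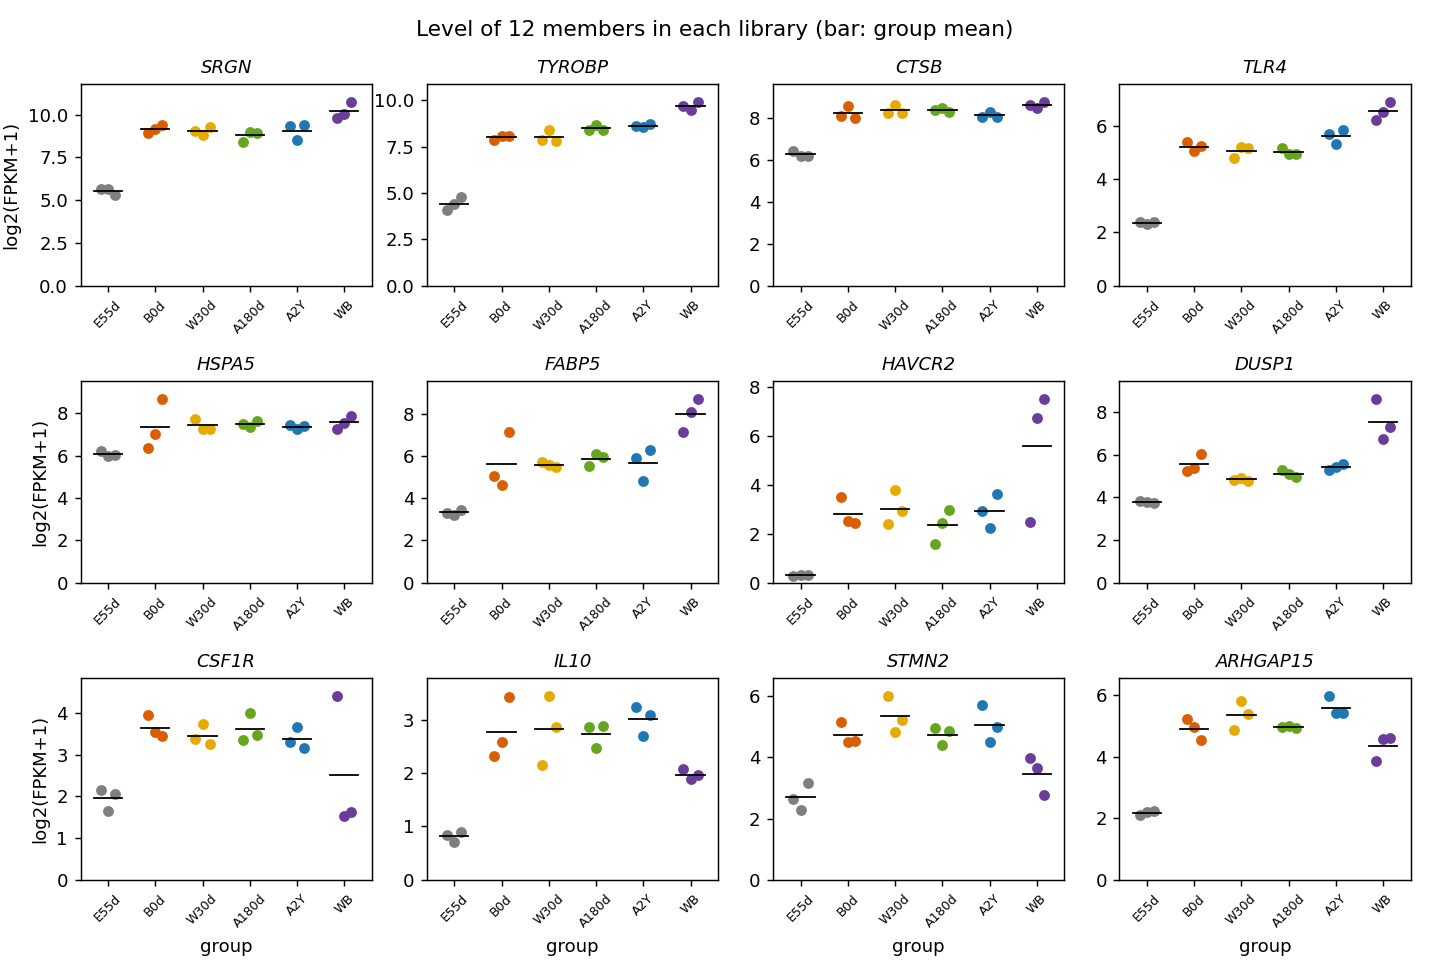
Level of 12 members in log2(FPKM+1) (y axis, from 0) in each of the 3 libraries of the 6 groups (x axis), with points for libraries and bars for group means. CTSB and SRGN are level from B0d to A2Y, and HSPA5 and FABP5 have 1 high B0d library. SRGN, TYROBP, TLR4, FABP5, HAVCR2, DUSP1, IL10, STMN2 and ARHGAP15 have WB means apart from A2Y. For HAVCR2, 1 WB library lies within the A2Y values.

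The WB libraries took part in the rule only through the mean over all libraries. Their comparison with A2Y, animals of the same age, asks whether genes that were level through domestic life had the same level in the Wild Boar. The A2Y mean entered the limit on the range, so the choice of members was not independent of this comparison. The counts and shares below are therefore descriptions beside those of all genes, and each p is that of the single gene in the model of all genes. The median WB minus A2Y difference of the members was 0.18 against 0.01 over all genes, and 64.1% of members were above 0 against 51.1% of all genes. In limma 57 members were higher and 21 lower in WB at an adjusted p of at most 0.05, or 15.9% and 5.85% of the set, where 10.8% and 9.57% of all genes passed. In either direction 78 members passed (21.7%), close to the 20.4% of all genes. The share above A2Y rested in part on 1 library. When WB library 3 was left out, 34 members (9.47%) were higher and 18 (5.01%) lower, where 6.07% and 9.57% of all genes were, and the median difference was 0.06. When A2Y library 1 was left out, 35 were higher and 12 lower, where 855 (6.62%) and 657 of all 12913 genes were.

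The same shares can be given for the genes that went up by birth without being level afterwards. Of these 761 genes, 16.3% were higher and 10.8% lower in WB. The 405 with the lowest postnatal mean at B0d had 13.8% higher and 16.5% lower, and the 186 with the highest at B0d had 19.4% higher and 2.15% lower. Like those of the members, these shares are descriptions, since the A2Y means helped to set the classes, and their differences were not tested. All 3 WB libraries were above all 3 A2Y libraries for 84 members (23.4%, against 17.5% of all genes), and below them for 36 (10%, against 17.4%).

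**Figure D5:**
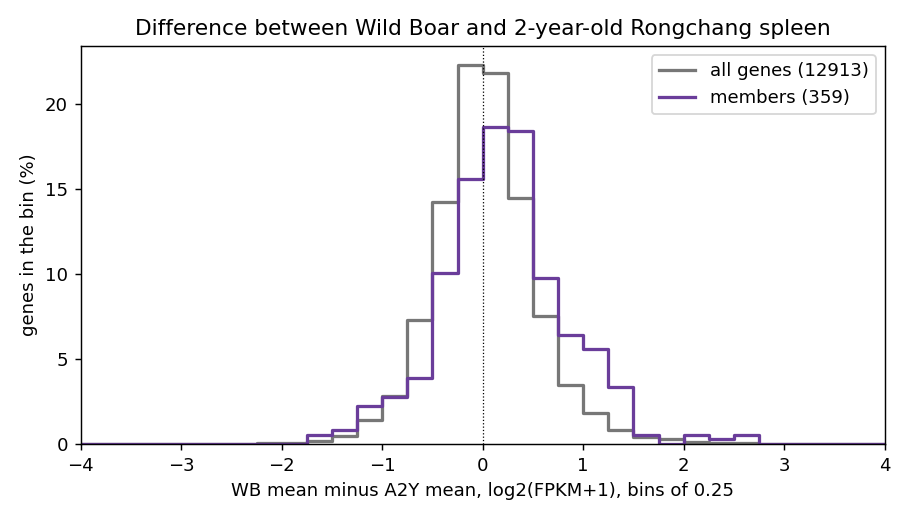
Distribution of the WB minus A2Y difference in mean log2(FPKM+1) (x axis, bins of 0.25) as a percentage of genes (y axis) for the 359 members (purple) and all 12913 genes (grey). The members are shifted to the right, with a median of 0.18 against 0.01, and the tails overlap.

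HAVCR2, which encodes the inhibitory receptor TIM-3, had the largest difference of the members with a symbol. It was at 2.93, 2.23 and 3.60 at A2Y and at 2.46, 6.71 and 7.49 in WB. WB library 1 lay within the A2Y values and the others far above. The difference was 2.63 with an SE of 0.87 (limma, adjusted p = 0.0416), and the call was lost without WB library 3 (adjusted p = 0.188), without any single A2Y library, and with only A2Y and WB in the model (adjusted p = 0.112). CSF1R was divided the other way, at 4.41, 1.54 and 1.62 in WB against 3.30, 3.68 and 3.17 at A2Y, and did not pass (adjusted p = 0.246 in limma).

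FABP5, a carrier of fatty acids, was at 5.91, 4.83 and 6.28 at A2Y and 7.15, 8.06 and 8.70 in WB. All WB libraries were above A2Y, by 2.29 with an SE of 0.51 (limma, adjusted p = 0.00599). FABP5 had 1 high B0d library of 7.15 and did not meet the rule without it. DUSP1, a phosphatase that switches off MAP kinases and is induced early by stress, was at 5.29, 5.46 and 5.58 at A2Y and 8.63, 6.73 and 7.32 in WB. Its difference was 2.12 with an SE of 0.33, without overlap between the groups (limma, adjusted p = 0.000605).

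ITPKC, an inositol phosphate kinase, was at 1.30, 2.06 and 1.61 at A2Y and 3.05, 3.14 and 3.89 in WB (difference 1.70, SE 0.32, limma adjusted p = 0.00209). TCIRG1, a subunit of the proton pump that acidifies lysosomes, was at 3.33, 3.18 and 3.02 at A2Y and 3.82, 4.93 and 5.10 in WB. For both genes the groups did not overlap, and TCIRG1 was 1.44 higher with an SE of 0.29 (limma, adjusted p = 0.00299). GRN was at 5.72, 6.48 and 6.17 at A2Y and 7.08, 7.08 and 7.72 in WB, a difference of 1.17 with an SE of 0.25 (limma, adjusted p = 0.00492). Of the whole lysosome list 7 of 17 genes passed, each higher in WB, where 10.8% of all genes did. Of its 6 members, GRN alone passed.

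The myeloid genes at the top of the set were among those higher in WB. TYROBP was at 9.68, 9.50 and 9.91 in WB, above every domestic library, by 1.06 over A2Y with an SE of 0.20 (limma, adjusted p = 0.00228). TLR4 was at 6.21, 6.51 and 6.89, also above every domestic library, by 0.91 with an SE of 0.19 (limma, adjusted p = 0.00337). SRGN was at 9.82, 10.06 and 10.75 in WB, a difference of 1.13 with an SE of 0.28 (limma, adjusted p = 0.00978, and 0.0626 with only A2Y and WB in the model). For these 3 genes the WB libraries lay above all domestic libraries. Their domestic stage means from birth were within the limit of the rule, but those of TYROBP and TLR4 were highest at A2Y. RASGEF1B was higher by 1.02, CCR1 by 0.87 and DENND11 by 0.62, with adjusted p of 0.00376, 0.0344 and 0.0374 in limma, and the calls of CCR1 and DENND11 were lost without WB library 3. Of the 15 genes of red pulp macrophages and iron recycling 3 passed, each higher in WB, where 10.8% of all genes did. The median difference of the list was 0.29, against 0.01 over all genes. Its genes went both ways, with HPGD, a prostaglandin dehydrogenase, lower by 0.68 and TIMD4, a receptor for dying cells, lower by 1.00, neither past the test. FTL took 63.2% to 69.7% of the summed FPKM of this list at A2Y and in WB, and without it the sum was 2196.2 to 2535.0 and 4032.0 to 5147.8. The part of these genes in the differences of the members was not tested.

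Lower in WB was IL10, at 2.07, 1.88 and 1.97 against 3.25, 2.71 and 3.09 at A2Y. The groups did not overlap, and the difference was -1.04 with an SE of 0.29 (limma, adjusted p = 0.0196). The call was lost without A2Y library 1 or 3 or WB library 2 (adjusted p from 0.0516 to 0.0793). In WB it still stood 1.16 above the E55d mean. STMN2, a regulator of microtubules best known from neurons, was at 5.71, 4.51 and 4.99 at A2Y and 3.99, 3.66 and 2.77 in WB. Its difference was -1.60 with an SE of 0.37 (limma, adjusted p = 0.00742). DAPL1 was at 4.79, 3.02 and 3.57 at A2Y and 2.40, 2.13 and 2.08 in WB (difference -1.59, SE 0.33, limma adjusted p = 0.00386). In both genes all WB libraries were below all A2Y libraries.

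ARHGAP15, an inhibitor of Rac signalling in blood cells, was at 5.97, 5.41 and 5.41 at A2Y and 3.87, 4.59 and 4.62 in WB (difference -1.24, SE 0.25, limma adjusted p = 0.00332). SORL1, a sorting receptor, was at 3.31, 3.48 and 3.23 at A2Y and 2.12, 2.16 and 2.45 in WB (difference -1.10, SE 0.28, limma adjusted p = 0.012). The groups were again apart. CYB561A3, a reductase of the lysosomal membrane, was lower by 1.33 (SE 0.43, limma adjusted p = 0.0385), and the call was lost when any single A2Y library, WB library 1 or WB library 2 was left out (adjusted p from 0.0664 to 0.109). Of the lists without a member, 8 of 10 genes of B cells and plasma cells passed, each lower in WB, as did 4 of 18 genes of T and NK cells, where 9.57% of all genes did. The summed FPKM of the B cell list was 394.7 to 542.1 at A2Y and 229.0 to 381.3 in WB. XBP1, which differed by 0.12, took 31.1% to 39.7% of it at A2Y and 51.4% to 53.3% in WB. Without XBP1 the sum was 238.0 to 373.4 at A2Y and 111.4 to 180.2 in WB. For the T and NK cell list the sum was 295.3 to 509.4 at A2Y and 241.3 to 276.0 in WB. The part of these lists in the differences of the members was not tested.

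Set against the whole postnatal range of the domestic pig, the WB mean was inside the range of the 4 stage means for 109 members, above it for 188 and below it for 62. Over all genes 56.4% were inside, 28.5% above and 15.1% below. The rule kept the range of the members narrow, which by construction lowers their share inside. In 344 members all 3 WB libraries were above all 3 E55d libraries (95.8%, against 42.3% of all genes). The rule had chosen genes with a low E55d mean and with A2Y near B0d. This count therefore follows in large part from the rule, and nothing is read from it. CTSH (difference from A2Y of 0.22), IL15 (-0.23) and CSF3R (0.10) were examples with the WB mean inside the range. None of these 3 passed the test, which does not show that their levels were alike.

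The same rule was applied to the 15040 long non-coding RNAs (lncRNAs), with an empty cell read as FPKM 0. It gave 55 lncRNAs (0.366%, against 2.78% of protein-coding genes), and 158 with a pseudocount of 0.1, of which 30 were shared. Of the 342 lncRNAs with a rise of at least 1, 16.1% were level, against 32.1% of such protein-coding genes. The median level of the members was 1.47 for lncRNAs and 3.43 for protein-coding genes. On this scale the same limits are not alike at such levels, so nothing is read from the shares. The largest difference belonged to TU26355, which was at 1.61, 1.44 and 1.72 at E55d, 4.58, 4.40 and 5.67 at B0d, and 5.53, 5.53 and 5.48 at A2Y. In WB it was at 4.41, 4.33 and 4.45, below all A2Y libraries. Against the 4 stage means the WB mean was inside for 19 lncRNAs, above for 7 and below for 29. The shares over all lncRNAs were not computed, and the rule kept the range narrow here too, so nothing is read from these counts.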

How the data were processed

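Strand-specific libraries of spleen RNA from 3 animals in each of 6 groups were sequenced and mapped by the authors to a pig genome (Sscrofa10.2 in the submitters' notes) with replaced sex chromosomes. They quantified genes with StringTie 1.3.3 and deposited log2 values, log2(FPKM+1), 1 column per library, which were used as deposited although the test design had assumed FPKM. Depth per value is unknown. Symbols were matched for 8215 of 12913 identifiers (230 of 359 members) from a gene name table. The E55d columns are numbered 1, 5 and 6 and were used as libraries of that stage without a sample number.

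Differences between groups were fitted in R 4.3.3 by limma 3.58.1 (6 groups, 18 libraries, trend in eBayes, Benjamini-Hochberg over all genes, genes with FPKM above 0.1 in at least 3 libraries, which all 12913 passed). On simulated data for WB and A2Y with 200 of 12913 genes changed, it recovered 67% of genes changed by 1 and 99% of those changed by 2 on the log2 scale. The simulation gave each gene the same spread in all groups. In the data the median SD over all genes was 0.12 at E55d, 0.19 at A2Y and 0.25 in WB, so the recovery here may differ. Tables and figures were made with Python 3.11.15, pandas 2.3.3 and matplotlib 3.10.9. Members and gene lists were chosen with earlier results of these data known. Named were the 12 members with the largest rise, the 6 with the highest mean, those on a list, and the 5 highest and 5 lowest in WB that passed; others were picked after their values were seen. Some named members are not reported here. Other settings were a pseudocount of 0.1, median-ratio scaling, a filter at FPKM above 1, no filter, no trend, only A2Y and WB in the model, a replicate block, and each library left out. Sequences and genome positions were not used here.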

Additional observations from a re-analysis of the deposited data

How the results depend on the processing

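The set held 477 genes with a pseudocount of 0.1 (281 of them among the 359), 281 with median-ratio scaling (254 shared) and 357 with FPKM above 1 in at least 3 libraries. With each library left out it ran from 305 to 396. For WB against A2Y the count of members that passed was 78, and 73 to 87 with other filters, pseudocount, scaling and no trend, with 71.2% to 74.7% of them higher in WB. With only A2Y and WB in the model it fell to 52, of which 37 were higher in WB (57 in the model of all groups). Over all genes the count fell from 2631 to 1401 in that model, and the share higher in WB from 10.8% to 5.64%. Leaving out each library gave 47 to 95 members, 34 to 70 higher and 12 to 26 lower, with the lowest totals without A2Y library 1 (47) and WB library 3 (52). In these 2 settings 1512 and 2020 of all genes passed. The numbers of A2Y and WB libraries share only a number: deviations of same-numbered libraries correlated at 0.001, -0.072 and 0.119 over genes, and with the replicate block 67 members passed, 60 of them among the 78. With that block 1453 of all genes passed. A block for B0d and E55d was not run, as the E55d columns carry other numbers. The 18 named genes that passed kept their direction in all 450 combinations of gene and setting and their call in 419. HAVCR2, CCR1, DENND11, CYB561A3, IL10 and SRGN lost it in at least 1. The WB mean was inside the domestic range for 109 to 116 members. For lncRNAs the rule gave 55, 52 with FPKM above 1 in at least 3 libraries, and 158 with a pseudocount of 0.1 (30 shared), so that count depends on the pseudocount. Groups of 3 limit all of these, and read depth could not be used.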
